A study of Mesocricetus auratus with 8 samples.

Results

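Fatty acid oxidation and the TCA cycle were examined through 41 genes that encode the enzymes and carriers of both pathways, out of 17590 genes with values in hamster satellite cells (SCs). The members were taken by gene symbol from a list of the pathway, and all 41 were found. SCs are the stem cells of skeletal muscle. They were isolated by pre-plating from the hindlimb muscles of wild-type male Syrian hamsters (Slc:Syrian), a species that hibernates, aged 8–16 weeks, and grown in culture. The study's 4 control libraries, titled day 3 at 37°C, were compared with 4 cold libraries from cells kept at 37°C for 48 h, then for 24 h at 37°C in growth medium with 100 mM HEPES, and then for 24 h at 4°C. The series design has RNA taken just before and just after the cold step, which would place the controls after the HEPES day, but their own treatment labels do not mention HEPES. Controls were sampled 24 h earlier, so the temperature and the additional day in culture cannot be told apart. The treatment labels of control replicates 1 to 4 give 3, 4, 5 and 6 days at 37°C, unlike their titles. The study calls the libraries biological replicates. Whether they came from separate animals or separate cultures is not given in the sources used here, so p-values measure the spread between these libraries, whatever its source.

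Fatty acids enter the cell, are bound by carrier proteins and are activated to acyl-CoA. The carnitine shuttle then moves the acyl group into the mitochondrion, where beta-oxidation cuts it into acetyl-CoA and passes electrons through the electron transfer flavoprotein (ETF) to the respiratory chain. The TCA cycle oxidises acetyl-CoA from fat and from glucose. Adult muscle fibres are rich in these enzymes and carry muscle forms of some of them, whereas proliferating SCs rely to a large degree on glycolysis.

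After 24 h of cold, the transcripts of the pathway were close to their control level. Summed over the 41 genes, the level was 3614 ± 107 TPM (SD, n = 4) in control and 3586 ± 113 TPM (SD, n = 4) in cold, and the ranges of the libraries overlapped, at 3501–3737 and 3458–3714 TPM. TPM is a transcript's share of a library, scaled by transcript length. None of the 41 genes passed an adjusted p of 0.05 (edgeR quasi-likelihood test over 12506 genes), with 0 lower and 0 higher, against 0.072% of all genes lower and 0.0% higher. At an unadjusted p under 0.05 there was 1 member, against 6.7% of all genes. The lowest log2 fold changes belonged to muscle forms expressed at low levels, Fabp3 and Cpt1b, and neither passed the test. With a fold threshold of 2 added, 0 members were called, against 0.04% of all genes lower and 0.0% higher.

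The libraries held 16530747–18533801 expected counts each, and all 41 members passed the filter on low counts. Library number was the larger source of variation across all genes. Replicates 1 and 2 lay apart from replicates 3 and 4, in control as in cold, on the first principal component (54.5% of the variance), whereas cold and control lay apart on the second (17.9%). What the numbers mark is not given in the labels, but libraries sharing a number deviated together, as did, somewhat less, others on the same side of that split, so the model was also fitted with these numbers as a block. With that block 0 members passed in either direction, against 4.07% of all genes lower and 1.26% higher, and 4 members had an unadjusted p under 0.05, against 18.2% of all genes. With the fold threshold as well, 0 members were called, against 0.808% lower and 0.04% higher. DESeq2 called 0 members with and without the block. Of all genes it called 318 lower and 38 higher with the block, and 137 and 4 without it, at an adjusted p under 0.05. Markers of SCs and myoblasts were present in both groups and summed to 2158–2596 TPM in control libraries and 2061–2431 TPM in cold ones. Of these 10 genes, 0 passed without the block, and with it 3 passed as lower (Myod1 at −0.13, Cdh15 at −0.32 and Itga7 at −0.29 on the log2 scale) and 1 as higher (Met at 0.16) in edgeR. Summed markers of differentiating myocytes ranged over 1653–3539 TPM in control libraries and 717.2–1382 TPM in cold ones, and 11 of 11 passed as lower with the block in edgeR, 1 of them without it. In these bulk libraries, fewer cells of a type and less RNA per cell cannot be told apart.

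**Figure D1:**
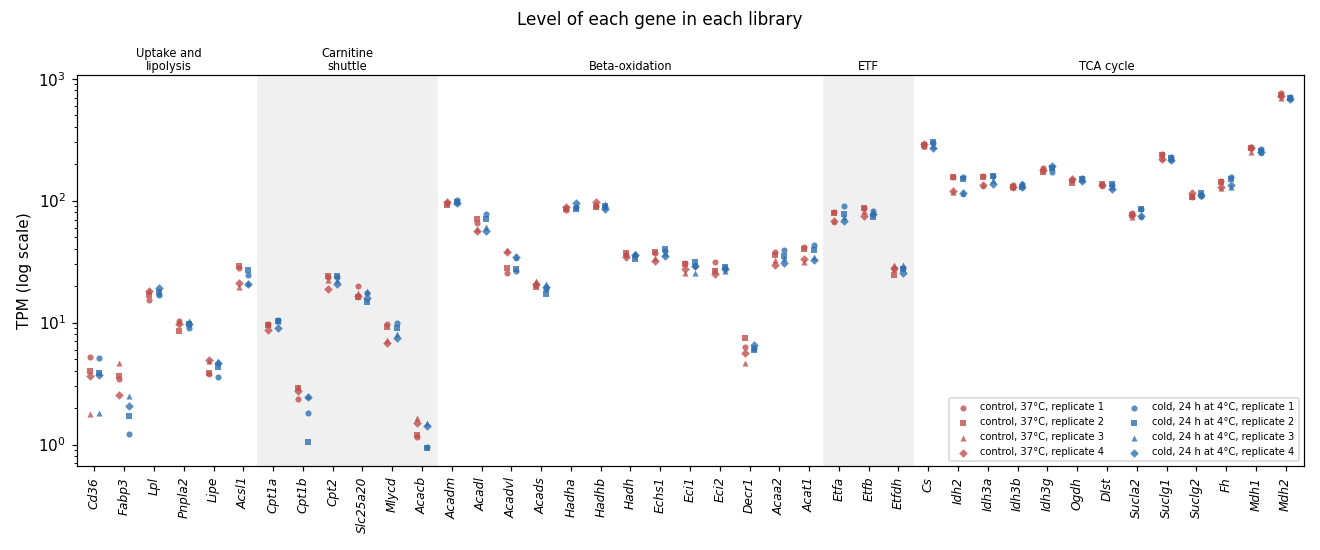
TPM (log axis) of each of the 41 genes in every library, ordered by role, with control at 37°C in red and cold in blue, and 1 marker shape per replicate number. Levels run from Acacb (mean 1.29 TPM) to Mdh2 (mean 712 TPM), and the red and blue points lie at nearly the same height for most genes.

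Among the 41 members, levels compared between genes in TPM were lowest for those that bring fatty acids to the mitochondrion and highest for the TCA cycle. The median over genes of the mean TPM was 7.03 for uptake, binding, activation and lipolysis (6 genes), 9.09 for the carnitine shuttle and its control (6 genes), 35.9 for beta-oxidation (13 genes), 75.8 for ETF (3 genes) and 148 for the TCA cycle (13 genes). The lowest level was that of Acacb, the acetyl-CoA carboxylase that makes malonyl-CoA at the mitochondrion, at 1.29 TPM. The highest was that of Mdh2, mitochondrial malate dehydrogenase, at 712 TPM. Citrate synthase (Cs, 286 TPM) and cytosolic malate dehydrogenase (Mdh1, 260 TPM) followed Mdh2. These ranks hold for the members only. Other genes of fatty acid entry, activation and stores, followed below, summed to 1301 TPM in control, 601 TPM of it from Fabp5. The member group of uptake, binding, activation and lipolysis summed to 62.86 TPM in control.

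The first group takes fatty acids up and prepares them. Its summed level was 62.86 ± 3.65 TPM in control against 60.78 ± 2.51 TPM in cold (SD, n = 4 each), and 0 of 6 genes passed in either fit. Fabp3, the heart and muscle fatty acid-binding protein, was measured at 3.44, 3.65, 4.63 and 2.57 TPM in control replicates 1 to 4 and at 1.23, 1.70, 2.48 and 2.08 TPM in the cold ones. Each cold library lay below every control library. Fabp3 was the only member whose groups did not overlap, and over all genes 2.41% lay lower without overlap and 2.27% higher. The log2 fold change was −0.93 ± 0.28 (SE), with a 95% interval from −1.57 to −0.29 and an adjusted p of 0.445 (edgeR). With the replicate block the change was again −0.93 ± 0.28 (SE) and the adjusted p was 0.0634 (edgeR). The exact two-sided permutation test on TPM gave p = 0.0286, the smallest that 4 against 4 libraries allow. That p follows from the lack of overlap, and it was not adjusted over the 41 members tested in this way. The Fabp3 values rest on 14–23 counts per control library and 7–13 per cold library, the fewest of any member.

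Among the 28 alternative fits, members were called in 3, and Fabp3 was among them each time. The log2 TPM ratios of Fabp3 in the 4 pairs were −1.48, −1.10, −0.90 and −0.31, with the smallest difference in pair 4. The change in replicates 1 and 2 alone was −1.30 ± 0.40 (SE; adjusted p = 0.0444, edgeR), and in replicates 3 and 4 alone −0.63 ± 0.43 (SE; adjusted p = 0.997, edgeR). With the block and without replicate 4 it was −1.13 ± 0.32 (SE; adjusted p = 0.0366, edgeR), and without replicate 1, 2 or 3 it ran from −0.96 to −0.79 with adjusted p between 0.156 and 0.288 (edgeR). DESeq2 with the block gave −0.95 ± 0.52 (SE; adjusted p = 0.655). On log2(TPM + 0.1) with the block, limma gave −0.91 ± 0.17 (SE; adjusted p = 0.027). The fits on replicates 1 and 2, on replicates 3 and 4, without replicate 4 and with limma called 4, 0, 2 and 1 members, each as lower. Of all genes they called, in that order, 6.85%, 0.381%, 4.88% and 1.95% lower and 4.73%, 0.0159%, 2.56% and 0.16% higher. Summed myocyte markers were also lower in cold in every pair of libraries, and their part in the Fabp3 values was not tested. The adipocyte list had 5 genes in the table and summed to 2.42–3.63 TPM in control and 2.77–3.98 TPM in cold, of which Cfd made up 2.01 and 2.21 TPM on average and Fabp4 0.593 and 0.62 TPM. Adipoq was at means of 0.0 and 0.0075 TPM and Plin1 at 0.0125 and 0.0375 TPM. The part of such cells in the Fabp3 values was not tested.

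The other genes of uptake lay near 0 on the log2 scale of change. Lpl, the lipoprotein lipase that frees fatty acids outside the cell, had 17.1 ± 1.37 TPM in control against 17.9 ± 1.04 TPM in cold (SD, n = 4 each) and a change of 0.04 with the block. Pnpla2 and Lipe, the lipases that open stored triglyceride in turn, both had a log2 fold change of −0.01, with 95% intervals with the block from −0.19 to 0.17 and from −0.22 to 0.19. Acsl1, which activates long-chain fatty acids to acyl-CoA, was at 27.94, 29.26, 19.58 and 21.19 TPM in control and 24.74, 26.80, 21.08 and 20.54 TPM in cold, with replicates 3 and 4 below replicates 1 and 2 in each group. In replicates 1 and 2 alone its change was −0.21 ± 0.06 (SE; adjusted p = 0.0209, edgeR), and in replicates 3 and 4 alone it was 0.05 ± 0.07 (SE; adjusted p = 0.997, edgeR). Cd36, a fatty acid transporter of the cell surface, ranged from 1.78 to 5.20 TPM in control and from 1.83 to 5.09 TPM in cold. Its interval without the block, −0.85 to 0.81, was the widest of the 41, and with the block it was −0.25 to 0.22.

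The carnitine shuttle had 61.52 ± 4.78 TPM in control against 61.13 ± 3.27 TPM in cold (SD, n = 4 each), with 0 of 6 genes passing in either fit. Its gate is carnitine palmitoyltransferase 1, which occurs as a liver form encoded by Cpt1a and a muscle form encoded by Cpt1b. Cpt1b was at 2.36, 2.89, 2.94 and 2.77 TPM in control and at 1.80, 1.05, 2.51 and 2.45 TPM in cold. The cold value was the lower one in 4 of 4 pairs, but the groups overlapped, since control replicate 1 lay below cold replicates 3 and 4. The log2 fold change was −0.51 ± 0.24 (SE; adjusted p = 0.797, edgeR), and with the block −0.52 ± 0.17 (SE; adjusted p = 0.10, edgeR), with a 95% interval from −0.88 to −0.16. The exact permutation test on TPM gave p = 0.0857.

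A single pair carried much of the Cpt1b difference. The log2 TPM ratios of the 4 pairs were −0.39, −1.46, −0.23 and −0.18, and pair 2, with cold replicate 2 at 1.05 TPM, stood apart. With the block and without replicate 2 the change was −0.27 ± 0.15 (SE; adjusted p = 0.518, edgeR), and without replicate 4 it was −0.66 ± 0.19 (SE; adjusted p = 0.0415, edgeR). In replicates 1 and 2 alone, a fit that rests on that same pair, it was −0.93 ± 0.23 (SE; adjusted p = 0.0124, edgeR), and in replicates 3 and 4 alone −0.19 ± 0.18 (SE; adjusted p = 0.997, edgeR).

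Cpt1a was at 9.71, 9.59, 9.76 and 8.63 TPM in control and at 10.52, 10.35, 10.34 and 9.07 TPM in cold, higher in 4 of 4 pairs with a log2 fold change of 0.08 ± 0.06 (SE, with the block; adjusted p = 0.533, edgeR). The ratio of Cpt1a to Cpt1b was 3.47 ± 0.442 in control and 5.88 ± 2.81 in cold (SD, n = 4 each). It was higher in cold in 4 of 4 pairs, with p = 0.0571 in the exact permutation test and 0.381 after adjustment over the 10 ratios compared. The cold ratios were 5.84, 9.86, 4.12 and 3.70, so that replicate 2 stood apart here too. Without cold replicate 2 the cold ratio was 4.56 ± 1.14 (SD, n = 3) and the log2 difference 0.37 in place of 0.66 (exact permutation p = 0.0857).

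Malonyl-CoA, the inhibitor of carnitine palmitoyltransferase 1, is made by acetyl-CoA carboxylases and removed by malonyl-CoA decarboxylase (Mlycd). Acacb, the mitochondrial carboxylase, was at 1.16, 1.19, 1.66 and 1.51 TPM in control and at 0.96, 0.93, 1.51 and 1.41 TPM in cold. It was lower in 4 of 4 pairs, although the groups overlapped, and its change with the block was −0.22 ± 0.10 (SE; adjusted p = 0.249, edgeR). Acaca, the cytosolic carboxylase, was more abundant at 15.9 ± 2.68 TPM in control against 17.2 ± 0.626 TPM in cold (SD, n = 4 each; adjusted p = 0.274 with the block, edgeR). The ratio of Acacb to Acaca was 0.0871 ± 0.00946 in control and 0.0697 ± 0.0165 in cold (SD, n = 4 each), lower in 4 of 4 pairs, with p = 0.171 in the exact permutation test. Mlycd, Cpt2, the inner-membrane transferase, and Slc25a20, the carnitine-acylcarnitine carrier, changed by 0.05, 0.01 and −0.09 on the log2 scale with the block, each with a 95% interval that held 0.

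**Figure D2:**
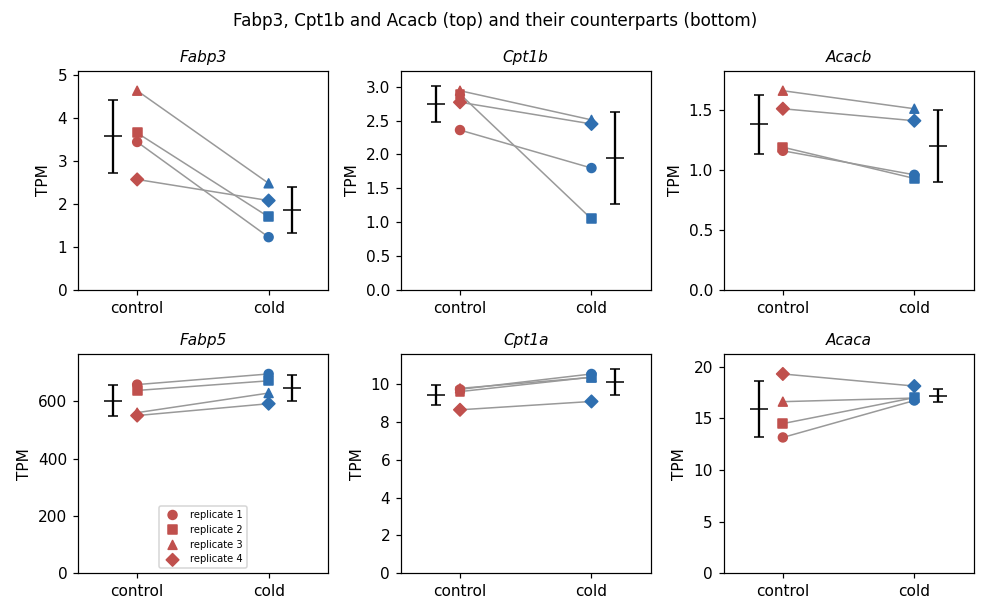
TPM of Fabp3, Cpt1b and Acacb (top) and of Fabp5, Cpt1a and Acaca (bottom) in control and cold, with a line joining libraries of the same number and black bars giving the mean ± SD of 4 libraries. The 3 upper genes lie lower in cold in 4 of 4 pairs, with the steepest line in replicate 2 for Cpt1b. None passed an adjusted p of 0.05 in edgeR on all libraries, with or without the replicate block.

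Beta-oxidation is a cycle of dehydrogenation, hydration, a second dehydrogenation and thiolysis. Its 13 genes summed to 595.2 ± 7.62 TPM in control against 601.5 ± 15.1 TPM in cold (SD, n = 4 each). None passed in either fit, 5 lay below 0 and 8 above, and the log2 fold changes ran from −0.13 to 0.09. With the block the 95% interval lay within ±0.25, that is within a 1.19-fold change, for 11 of the 13.

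The acyl-CoA dehydrogenases open the cycle and divide the work by chain length. Acadm, for medium chains, was the most abundant at 95.8 ± 2.56 TPM in control against 97.6 ± 2.39 TPM in cold (SD, n = 4 each). Acads, for short chains, had the lowest log2 fold change of the group. It was at 20.40, 19.58, 21.78 and 20.89 TPM in control and at 19.00, 17.25, 20.57 and 19.75 TPM in cold, lower in 4 of 4 pairs, with −0.13 ± 0.06 (SE, with the block; adjusted p = 0.306, edgeR). Acadvl, for very long chains, was at 25.38, 27.81, 39.29 and 38.15 TPM in control and at 26.54, 27.33, 34.27 and 34.32 TPM in cold. Acadl, for long chains, ran the other way over the library numbers, at 65.20, 71.09, 58.89 and 56.32 TPM in control and 77.51, 70.98, 60.79 and 55.99 TPM in cold. The ratio of Acadl to Acadvl was 2.57 and 2.56 in control replicates 1 and 2 and 1.5 and 1.48 in control replicates 3 and 4. Over all libraries it was 2.03 ± 0.621 in control and 2.23 ± 0.627 in cold (SD, n = 4 each; exact permutation p = 0.514, with no use of the replicate numbers). The cold ratios were 2.92, 2.60, 1.77 and 1.63, higher than the control of the same number in 4 of 4 pairs, and a paired test was not run. The ratio of Acadm to Acads was 4.64 ± 0.0967 in control and 5.12 ± 0.428 in cold (SD, n = 4 each), also higher in 4 of 4 pairs (exact permutation p = 0.0857, or 0.381 after adjustment over the 10 ratios). The changes of Acadm, Acadl and Acadvl with the block were 0.01, 0.06 and −0.10.

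Hadha and Hadhb encode the 2 subunits of the mitochondrial trifunctional protein, which carries out the later steps on long chains. Hadha was at 86.4 ± 2.07 TPM in control against 89.8 ± 4.76 TPM in cold, and Hadhb at 92.8 ± 3.70 and 89.9 ± 3.91 TPM (SD, n = 4 each), and their changes with the block were 0.04 and −0.06. Hadha was higher in cold in 4 of 4 pairs and Hadhb in 2. Their ratio was 0.931 ± 0.0165 in control and 1.00 ± 0.0911 in cold (SD, n = 4 each), with an exact permutation p of 0.114. Echs1, the short-chain enoyl-CoA hydratase, was higher in cold in 4 of 4 pairs with a log2 fold change of 0.09 ± 0.06 (SE, with the block; adjusted p = 0.452, edgeR). Hadh, the dehydrogenase for short and medium chains, and Acaa2, a thiolase, changed by −0.04 and 0.01 with the block. Acat1, the acetoacetyl-CoA thiolase, changed by 0.01.

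The auxiliary enzymes for unsaturated fatty acids are Eci1, Eci2 and Decr1. Eci1 and Eci2 had 28.4 and 27.5 TPM in control and 28.8 and 27.7 TPM in cold, with changes of 0.00 and −0.01 with the block. Decr1, the dienoyl-CoA reductase, was the least abundant of these 13, with 6.02 ± 1.18 TPM in control against 6.24 ± 0.259 TPM in cold (SD, n = 4 each). Its interval with the block, −0.27 to 0.35, was the widest of the 13.

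ETF collects electrons from the acyl-CoA dehydrogenases, and Etfdh hands them on to ubiquinone. Etfa was at 73.8 ± 7.07 TPM in control against 77.8 ± 9.74 TPM in cold, Etfb at 82.8 ± 5.53 and 78.5 ± 4.21 TPM, and Etfdh at 27.5 ± 2.31 and 27.7 ± 1.53 TPM (SD, n = 4 each). Cold and control libraries overlapped for all 3. The 95% intervals with the block lay within ±0.25 for 3 of 3. The ratio of the 2 ETF subunits, Etfa to Etfb, was 0.891 ± 0.0447 in control and 0.991 ± 0.109 in cold (SD, n = 4 each; exact permutation p = 0.229).

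The 13 TCA cycle genes were the most abundant of the member groups. They summed to 2710 ± 84.9 TPM in control against 2679 ± 84.5 TPM in cold (SD, n = 4 each). Their log2 fold changes ran from −0.09 to 0.05, and the 95% interval with the block lay within ±0.25 for 13 of 13. Cs, which joins acetyl-CoA to oxaloacetate and opens the cycle, was at 284 ± 5.50 TPM in control against 288 ± 14.3 TPM in cold (SD, n = 4 each), with a log2 fold change of 0.00 and an interval from −0.07 to 0.07 with the block.

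Isocitrate is oxidised by the NAD-linked complex of Idh3a, Idh3b and Idh3g and by the NADP-linked Idh2. The 3 subunit genes changed by 0.03, 0.02 and 0.02 with the block, Idh3a being higher in cold in 4 of 4 pairs, and the ratio of Idh3a to Idh3b was 1.12 in both groups. Idh2 was at 156.07, 157.06, 118.03 and 119.88 TPM in control and at 157.20, 149.55, 116.45 and 115.68 TPM in cold. Replicates 3 and 4 lay below replicates 1 and 2 by 0.40 on the log2 scale of TPM in each condition (−0.40 in control and −0.40 in cold), whereas the cold change was −0.05 ± 0.04 (SE, with the block; adjusted p = 0.568, edgeR).

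Ogdh and Dlst, subunits of the 2-oxoglutarate dehydrogenase complex, changed by 0.01 and −0.05 with the block. Succinyl-CoA ligase has a shared subunit, Suclg1, and an ADP-forming or GDP-forming partner, Sucla2 or Suclg2. Suclg1 was at 240.43, 236.94, 224.48 and 220.58 TPM in control and at 227.18, 225.31, 218.74 and 216.82 TPM in cold, lower in 4 of 4 pairs with −0.07 ± 0.04 (SE, with the block; adjusted p = 0.37, edgeR). Sucla2 and Suclg2 changed by 0.05 and 0.02, and the ratio of Suclg2 to Sucla2 was 1.43 ± 0.0694 in control and 1.41 ± 0.0905 in cold (SD, n = 4 each). Fh, fumarase, was at 137 ± 9.37 TPM in control against 143 ± 12.9 TPM in cold (SD, n = 4 each) and was higher in 4 of 4 pairs, with a change of 0.05 ± 0.04 (SE, with the block; adjusted p = 0.601, edgeR).

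Of the malate dehydrogenases, mitochondrial Mdh2 closes the cycle. Mdh1 is cytosolic, serves the malate-aspartate shuttle together with Mdh2, and is counted in the sum of the TCA cycle genes. Mdh2 was at 761.06, 733.72, 698.76 and 727.52 TPM in control and at 710.46, 688.77, 690.31 and 685.08 TPM in cold. It was lower in 4 of 4 pairs, and the groups overlapped only through control replicate 3. The change was −0.09 ± 0.03 (SE, with the block), with a 95% interval from −0.16 to −0.01 and an adjusted p of 0.172 (edgeR). In replicates 1 and 2 alone it was −0.15 ± 0.04 (SE; adjusted p = 0.0198, edgeR), and in replicates 3 and 4 alone −0.04 ± 0.06 (SE; adjusted p = 0.997, edgeR). Mdh1 changed by −0.08 ± 0.04 (SE, with the block; adjusted p = 0.294, edgeR), and the ratio of Mdh1 to Mdh2 was 0.364 ± 0.008 in control and 0.367 ± 0.00393 in cold (SD, n = 4 each).

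**Figure D3:**
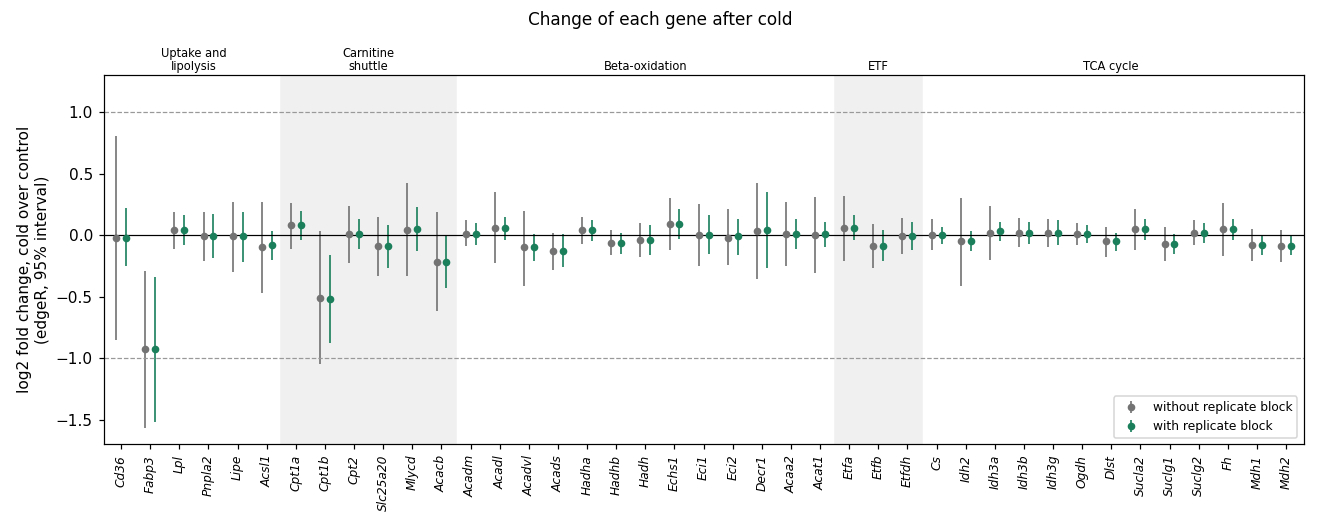
Log2 fold change of cold over control for the 41 genes, ordered by role, with 95% intervals from edgeR without the replicate block (grey) and with it (green). Dashed lines mark a log2 change of 1 in either direction. Fabp3 (−0.93) and Cpt1b (−0.52 with the block) lie lowest, and the TCA cycle genes lie within ±0.1 of 0.

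Across the 41 genes, 20 log2 fold changes lay below 0 and 21 above, with a median of 0.0014, against 0.0071 over all genes tested. In 4 of 4 same-numbered pairs, 6 members were lower in cold in TPM (Fabp3, Cpt1b, Acacb, Acads, Suclg1 and Mdh2) and 5 higher (Cpt1a, Hadha, Echs1, Idh3a and Fh), against 10.5% of all genes lower and 12.8% higher. The median size of the change, irrespective of sign, was 0.045, against 0.069 over all genes. Among genes with a mean of at least 20 TPM it was 0.04 for 29 members and 0.052 for 5596 genes. A bound of 0.13, chosen after the values were seen, held 38 of the 41 and 75.0% of all genes, and left out Fabp3, Cpt1b and Acacb. The medians over members of the 4 pairs, as log2 TPM ratios, were 0.01, −0.01, 0.02 and −0.01.

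The intervals give the sizes of change that remain compatible with these libraries. They concern normalized levels, so a fall of all transcripts alike would not show in them. Without the block, 39 of 41 intervals lay within a log2 change of ±1 and 37 within ±0.5, against 92.9% and 74.2% of all genes. With the block, 40 lay within ±1, 39 within ±0.5 and 34 within ±0.25, against 97.0%, 85.1% and 61.1% of all genes. The interval of Fabp3 with the block, −1.52 to −0.34, was the one that passed ±1. The median SE over members was 0.094 without the block and 0.053 with it.

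Several members differed between library numbers. In both conditions 14 genes lay lower in replicates 3 and 4 than in replicates 1 and 2 without overlap, among them Cd36, Acsl1, Cpt2, Mlycd, Acadl, Acat1, Etfa, Idh2, Idh3a and Fh. Lipe, Acacb and Acadvl, 3 genes, lay higher. Over all genes 9.09% lay lower and 23.5% higher, or 32.6% in either direction. Summed myocyte markers were lower in replicates 3 and 4 than in 1 and 2 within each group, and summed fibroblast markers ran from 1217 to 1739 TPM in control and from 1201 to 1687 TPM in cold. The part of these cell types in the differences was not tested.

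**Figure D4:**
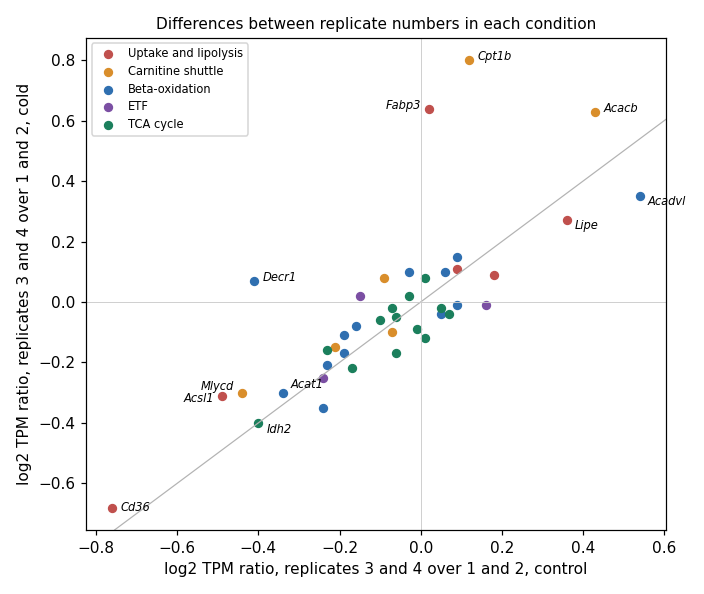
Log2 TPM ratio of replicates 3 and 4 over replicates 1 and 2 in control (horizontal axis) and in cold (vertical axis) for each of the 41 genes, coloured by role, with a grey line where both are equal. Idh2 (−0.40 in both) and Cd36 (−0.76 and −0.68) lie near the line, and Fabp3 (0.02 and 0.64) and Cpt1b (0.12 and 0.80) lie far above it.

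The rest of the pathway was followed in a list of 107 genes, of which 103 were in the table and 92 were tested. Without the block 0 passed in edgeR, and 2 had an unadjusted p under 0.05. With the block 2 passed as lower and 0 as higher, and 15 had an unadjusted p under 0.05. These are 2 and 15 of 92, against 4.07% of all genes lower and 18.2% with an unadjusted p under 0.05. The median log2 fold change was −0.0061 with the block. In the list of TCA cycle and pyruvate entry 0 of 28 passed, and succinate dehydrogenase subunit Sdhc came nearest, at −0.12 with an adjusted p of 0.0562 (edgeR with the block). Mitochondrial oxidation (20 tested) and peroxisomal oxidation (10 tested) also had 0 calls.

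The 2 genes that passed with the block, a count below the share over all genes, were Prkag3 and Mgll. Prkag3, the muscle gamma subunit of AMP-activated protein kinase, which phosphorylates acetyl-CoA carboxylases, was at 7.06, 5.56, 4.59 and 4.86 TPM in control and at 2.22, 2.51, 2.83 and 2.84 TPM in cold. Every cold library lay below every control library. The change was −1.11 ± 0.17 (SE; adjusted p = 0.056) without the block and −1.10 ± 0.14 (SE; adjusted p = 2.4e-05) with it in edgeR. The other gamma subunit genes, Prkag1 and Prkag2, were at 76.6 and 4.00 TPM in control and at 77.2 and 4.03 TPM in cold.

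Mgll, which splits monoacylglycerol, the last step of triglyceride breakdown, was at 1.60, 1.82, 1.72 and 2.12 TPM in control and at 1.15, 0.87, 1.06 and 1.33 TPM in cold, again without overlap. The change was −0.77 with both fits, with an adjusted p of 0.143 without the block and 0.00149 with it (edgeR). Myocyte markers were lower with Prkag3 and Mgll, 11 of 11 passing with the block and their summed TPM differing by −1.4 on the log2 scale, and their part in both was not tested. Fabp5, a fatty acid-binding protein found in many tissues, was far more abundant than Fabp3, at 601 ± 54.3 TPM in control against 646 ± 45.9 TPM in cold (SD, n = 4 each; adjusted p = 0.158 with the block, edgeR). Ppargc1a, the coactivator that raises mitochondrial gene expression in muscle fibres, did not pass the filter on low counts.

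**Figure D5:**
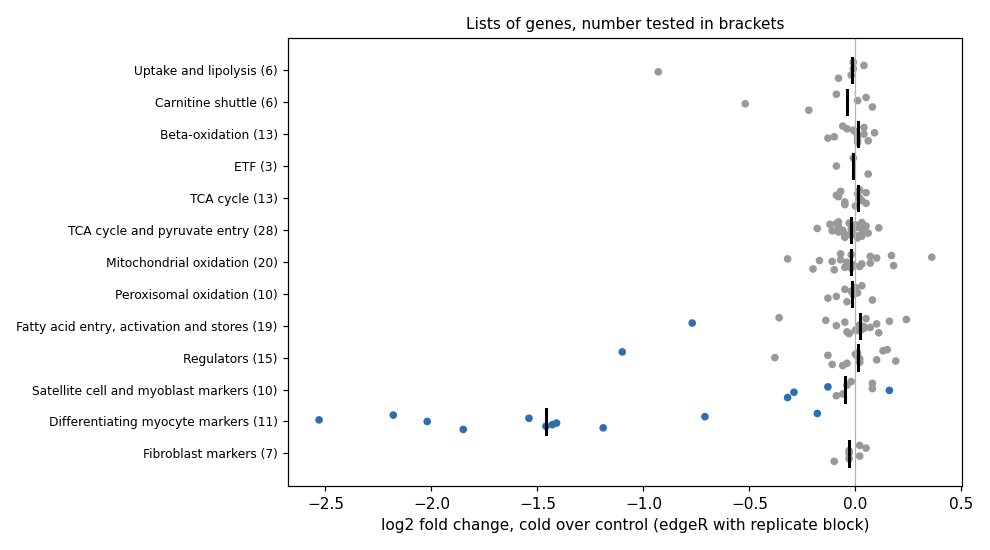
Log2 fold change of cold over control (edgeR with the replicate block) for the 41 genes by role, the other lists of the pathway and 3 lists of cell type markers. Each point is 1 tested gene, blue with an adjusted p under 0.05 and grey otherwise, and black bars are medians. Prkag3 (−1.10) and Mgll (−0.77) are the only blue points in the metabolic lists, while 11 of 11 myocyte markers are blue.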

How the data were processed

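RNA-seq was analysed in 4 control and 4 cold libraries of hamster SCs. The authors deposited expected counts per gene, which are not normalized, from 150 bp paired-end reads, and TPM values, which the authors scaled within each library. The 8 columns of normalized counts in the same table were not used. HISAT and HISAT2 are named in the submitters' processing notes. The genome build behind the counts is not given in the sources used here, so no coordinates were used. Gene symbols came from the table, and the identifiers and symbols of 41 of 41 members matched RefSeq. The members, lists and tests were chosen with earlier results of these data known.

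Expected counts were rounded (between 96.4% and 96.6% of values per library were whole, and those of the members all were) and cold was tested against control over the whole table by the quasi-likelihood F test of edgeR 4.0.16 (R 4.3.3), after filterByExpr and with TMM factors. This left 12506 genes of 31581 entries. Adjusted p-values are Benjamini-Hochberg values over these genes, and a stricter call, the study's definition of a differentially expressed gene, added a fold threshold of 2. Single genes and ratios were compared in TPM by an exact two-sided permutation test over 70 arrangements, or over fewer where a library was left out. Depth was 16530747–18533801 expected counts per library, and counting error is within the SE. The scripts were tested on simulated counts.

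Titles of both groups carry replicate numbers 1 to 4. Across genes, which are not independent replicates, deviations from the group means correlated at 0.609, 0.618, 0.647 and 0.659 for the 4 same-numbered pairs. Different numbers within replicates 1 and 2 gave 0.591 and 0.569, those within replicates 3 and 4 gave 0.432 and 0.472, and all others lay between −0.609 and −0.553. Much of the correlation is thus the split of replicates 1 and 2 from 3 and 4, which the block also absorbs. Each same-numbered pair was over 0.1, and by that rule the numbers were taken to pair the libraries. Mismatched pairs within replicates 1 and 2, or within 3 and 4, also exceeded 0.1. The rule therefore cannot tell pairing by number from the split. The block and the counts over 4 pairs rest on this pairing as an assumption. Alternatives were DESeq2 1.42.0, limma 3.58.1 on log2(TPM + pseudocount), other normalizations and filters, and left-out libraries. All members are named, with values per library for those whose groups did not overlap. Of the other pathway genes, those passing with the block are named. Values per library of other genes, and the names Sdhc, Fabp5, Acaca, Prkag1, Prkag2 and Ppargc1a, were chosen after their values were seen. Figures were drawn with matplotlib 3.10.9.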

Additional observations from a re-analysis of the deposited data

Results flagged for a closer look

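Single libraries stood apart from the other 3 of their group in TPM for 2 genes. Cpt1a was at 8.63 TPM in control replicate 4, against 9.59–9.76 in the other control libraries, and at 9.07 TPM in cold replicate 4, against 10.34–10.52 in the other cold ones. Suclg2 was at 114.88 TPM in control replicate 4, against 107.37–108.18 in the others. These are 3 of 82 groups of 4 libraries compared, and 4.1 would be expected by chance.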

How the results depend on the processing

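The replicate block left the counts of members called at 0 lower and 0 higher, with and without the fold threshold, and the median log2 fold change at 0.0015, and it changed no call of a member. Members were called in 3 of 28 alternatives, all as lower. With replicates 1 and 2 alone 4 members passed an adjusted p of 0.05 (Acsl1, Cpt1b, Fabp3 and Mdh2), against 6.85% of all genes lower and 4.73% higher. Of these members 1, Fabp3, also passed the fold threshold. With that threshold, calls over all genes ran from 0 to 175 lower and from 0 to 8 higher across the fits. With the block and without replicate 4, 2 members passed (Cpt1b and Fabp3), against 4.88% of all genes lower and 2.56% higher. In that fit 1 of them, Fabp3, passed the fold threshold, against 114 lower and 3 higher of 12454 genes. With limma on log2(TPM + 0.1) and the block 1 member passed (Fabp3), against 1.95% lower. With replicates 3 and 4 alone 0 passed. The median log2 fold change was −0.0526 with replicates 1 and 2 alone and 0.0189 with replicates 3 and 4 alone, −0.0307 with the block and without replicate 4, and between −0.0336 and 0.0228 when 1 library or pair was left out, when the counts were 0–1 lower with the fold threshold and 0–2 without it. The cause was not tested. Of 1148 member values under the alternatives, 1081 moved by less than the SD of the pairs and 67 by more. The sign changed in at least 1 alternative for 27 members, none with a change over 0.1 in size, and in none for 14, among them Fabp3, Cpt1b, Acacb, Mdh2 and Cpt1a. Over all genes, the calls at an adjusted p of 0.05 were 9 lower and 0 higher without the block, 509 and 158 with it, 137 and 4 with DESeq2, and between 0 and 853 lower and 0 and 589 higher over the alternatives. The difference in the log2 ratio of Cpt1a to Cpt1b ran from 0.37 to 0.84 when 1 library was left out, an alternative added after the data were seen. The exact permutation p then lay between 0.0286 and 0.143 before adjustment. With 1 library left out the test has fewer arrangements, and 0.0286 is the smallest p it allows. Fabp3 rests on 7–23 counts per library.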
